A study of Rattus norvegicus with 113 samples.

Results

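The classical complement pathway was followed in the rat brain through the 7 genes that encode its components C1, C2 and C3: C1qa, C1qb, C1qc, C1r, C1s, C2 and C3. Members were the array probes whose transcript accession maps to one of these symbols in RefSeq. They numbered 8 of 45598 probes on the larger of the 2 array designs used and 8 of 30367 on the smaller one, for 7 of the 16581 and 15637 genes that could be named on the respective designs. Of the genes 5 had 1 probe on both designs. C1s had a second probe on the larger design and C2 a second probe on the smaller one, and each gene was read from its brighter probe.

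The classical pathway starts when C1q, a recognition molecule built from A, B and C chains, binds antibody, dying cells or other tagged surfaces. C1q carries the serine proteases C1r and C1s, where C1r activates C1s and C1s then cleaves C4 and C2 to form an enzyme that splits C3, the step on which all complement routes converge. In the brain, microglia are the main source of C1q, complement tags are involved in the removal of synapses during development, and C3 is made by reactive astrocytes, microglia and infiltrating myeloid cells.

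The RNA came from adult male Sprague-Dawley rats in a model of traumatic brain injury (TBI) in which a fluid pulse strikes the dura to one side of the midline (parasagittal fluid percussion). TBI rats were anesthetized, trephined and injured, sham rats had the same anesthesia and surgery without the fluid pulse, and naive rats had neither. Tissue was taken 24 hr, 2 weeks, 3 months, 6 months or 1 year later, and hippocampus and a small piece of cortex near the injury came from the same animals. Each group of 1 tissue, condition and interval held 4 arrays of 4 rats, except that the hippocampus at 24 hr had 2 sham and 3 TBI arrays and no naive array. The severity is called moderate in the sample descriptions and severe in the methods. Both tissues are mixtures of cells, so more cells of a type and more RNA per cell cannot be told apart in any value below.

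Levels are given as log2 of the processed array signal over the median of the same array, so that 0 is the median probe of the array and 1 unit is a doubling. All member probes were well above background on every array, and none was saturated. C1qa, C1qb and C1r were each printed as 10 spots on the larger design. Their SD between spots of an array had a median of 0.0506, 0.0518 and 0.0819 log2 units, against 0.29, 0.23 and 0.31 between rats of a group, so spots of an array differed less than arrays of different rats, a spread that also holds RNA preparation, labeling and hybridization. C1qc, C2 and C3 had 1 spot on that design and gave no such value. Hippocampus at 24 hr and 3 months was on the smaller design and everything else on the larger one, and levels were not set against each other across designs. Each group was on 1 slide. TBI and sham shared that slide in the hippocampus at 2 weeks, 3 months and 1 year and in the cortex at 3 months and 1 year, and elsewhere the slide and the injury cannot be told apart. TBI and naive arrays were on different slides at every interval. In comparisons of TBI with naive rats the slide and the injury cannot be told apart.

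Across the series 4 arrays stood apart from their groups and touch several results. In cortex sham replicate 3 at 2 weeks, 93.0% of probes were well above background, against a median of 56% over all 113 arrays. C1qa read 1.72 there against 6.33 to 6.61 in the other sham rats, C1r read -1.89 against 2.95 to 3.42, and the summed level of 14 microglia and macrophage markers was 31.6 times the array median against 717 to 838. On the authors' own scaling of that array the C1q chains were not low, with C1qa at 3.24 against 2.71 to 2.95, but C1s was high at 2.31 against -1.29 to -0.92 and C3 at 2.86 against -0.38 to -0.17. In hippocampus naive replicate 3 at 6 months C1qa reached 10.01 and C3 9.17, while C1r at 2.62 lay within its group, and the microglia sum was 3790 against 656 to 1610. Cortex naive replicate 4 at 6 months had C3 at 7.63 against 3.71 to 4.47, and cortex naive replicate 4 at 2 weeks had C1qa at 4.01 against 5.90 to 6.83. For several results that rest on one of these arrays, the value without that array is given as well. Other comparisons that hold these arrays are given with all arrays only. The 4 arrays were picked without a fixed rule and are described here by the member values themselves. A call made without one of them is thus not independent of those values.

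In the rat genome (build GRCr8) the 7 genes fall in 4 places. The C1q chains lie side by side on chromosome 5, C1qb at chr5:154402276-154407827, C1qc at chr5:154410845-154414208 and C1qa at chr5:154417086-154419933, with 3017 and 2877 bases between them. C1r (chr4:159099013-159109770) and C1s (chr4:159116549-159128736) are neighbors 6778 bases apart. C2 (chr20:3944722-3975006) ends 264 bases from Cfb, its counterpart in the alternative pathway, and C3 (chr9:2174412-2201339) stands alone among these genes.

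The 250 bases before the annotated gene start are shown for C1qa, C1qb, C1r and C3 as context for the levels that follow. They are the members whose promoter was in the sequence table used. Sequences are from RefSeq (GRCr8), written 5′ to 3′ on the strand of the gene, and capitals mark matches to any of 4 short motifs searched on both strands. The windows are chr5:154419934-154420183 for C1qa, chr5:154407828-154408077 for C1qb and chr9:2201340-2201589 for C3, all on the minus strand, and chr4:159098763-159099012 on the plus strand for C1r.
C1qa: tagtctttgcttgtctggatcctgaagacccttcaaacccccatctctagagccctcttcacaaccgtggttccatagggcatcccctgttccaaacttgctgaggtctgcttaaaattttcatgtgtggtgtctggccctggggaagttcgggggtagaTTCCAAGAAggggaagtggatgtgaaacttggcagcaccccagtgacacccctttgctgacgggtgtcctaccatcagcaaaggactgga
C1qb: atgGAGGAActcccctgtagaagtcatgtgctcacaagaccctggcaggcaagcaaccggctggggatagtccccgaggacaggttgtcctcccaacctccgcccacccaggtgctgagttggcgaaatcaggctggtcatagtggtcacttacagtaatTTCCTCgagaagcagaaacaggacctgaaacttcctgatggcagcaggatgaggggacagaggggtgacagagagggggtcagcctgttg
C1r: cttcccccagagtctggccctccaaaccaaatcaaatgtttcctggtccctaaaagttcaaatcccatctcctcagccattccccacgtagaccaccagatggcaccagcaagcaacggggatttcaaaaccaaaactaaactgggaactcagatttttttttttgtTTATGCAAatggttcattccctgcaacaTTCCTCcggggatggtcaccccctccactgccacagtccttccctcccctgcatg
C3: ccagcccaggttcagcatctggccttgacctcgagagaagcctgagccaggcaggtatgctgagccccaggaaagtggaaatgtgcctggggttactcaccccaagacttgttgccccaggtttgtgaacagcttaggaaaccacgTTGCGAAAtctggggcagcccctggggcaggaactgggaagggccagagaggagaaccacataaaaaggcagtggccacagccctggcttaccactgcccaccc
C1qa held 1 match to TTCNNNGAA, the pattern of STAT sites, 90 bases before the start, and 7.67% of 33465 rat promoters of this length hold one. C1qb held GAGGAA, the core bound by the myeloid factor PU.1, 247 and 90 bases before the start (23.3% of promoters hold it). C1r held TTGCNNAA, a C/EBP pattern, at 83 bases (9.22%) and GAGGAA at 55 bases. C3 held TTGCNNAA at 104 bases. TATAAA, the letters of a TATA box (12.9% of promoters), was in none of the 4 windows. No motif was found in all 4 windows, and a match of letters is not a binding site.

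One day after injury C1s, C3 and C1r had the highest differences of the 7 genes in the hippocampus. C1r, C1s, C2 and C3 were higher in TBI than in sham rats by 2.19-fold to 5.32-fold, all 4 called by limma at an adjusted p under 0.05 (Benjamini-Hochberg over 16735 probes), and the 3 C1q chains did not pass. Whether the genes differed from each other was not tested, and C1qc at 1.21 log2 units read above C2 at 1.13. Among all probes tested, 13.6% were called in either direction and 5.57% were called higher.

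C1s, the protease that cleaves C4 and C2, stood at 0.98 and 1.81 in the sham arrays and at 4.18, 4.03 and 3.22 in the TBI arrays. The difference was 2.41 ± 0.37 log2 units (SE), or 5.32-fold, with a limma adjusted p of 0.0131. C1r, which activates C1s, was at 1.25 and 1.72 in sham and 3.89, 3.74 and 3.06 in TBI. For both proteases every TBI array was above every sham array by more than 1 log2 unit. C1r differed by 2.08 ± 0.29 (4.23-fold, 95% interval 1.38 to 2.78 log2 units, limma adjusted p 0.00982). C3 was at 3.27 and 4.02 in sham and 5.95, 6.08 and 5.32 in TBI, a difference of 2.14 ± 0.31 (4.40-fold, limma adjusted p 0.0118). C3 thus kept the same order as the proteases, with no overlap between the groups. C2, the other substrate of C1s, was at 1.79 and 2.18 in sham against 3.57, 2.86 and 2.94 in TBI, a difference of 1.13 ± 0.26 (2.19-fold, limma adjusted p 0.0386). Its second probe gave 1.5 ± 0.18 (2.84-fold, limma adjusted p 0.00699).

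C1qa, the A chain, was at 7 and 6.76 in sham and 7.16, 7.79 and 6.91 in TBI at 24 hr. The groups overlapped, and the difference of 0.41 ± 0.27 had a limma adjusted p of 0.361. C1qb was at 7.39 and 7.57 in sham and 8.20, 8.67 and 7.72 in TBI, differing by 0.72 ± 0.28 (limma adjusted p 0.143). C1qc was at 5.08 and 5.38 in sham and 6.54, 7.13 and 5.66 in TBI, differing by 1.21 ± 0.41 (limma adjusted p 0.105). For the B and C chains all TBI arrays were above the sham arrays, without passing the test. At an unadjusted p under 0.05, 6 of the 7 genes passed, beside 31.5% of all probes, and the same number had every TBI array above both sham arrays, as did 22.8% of probes. C1qb and C1qc were also called with normexp background correction and with array weights. With the replicate number as a block C1qc was called, alone of the chains, and C2 was not. No member was called without the filter on dim probes. The sham and TBI arrays were on different slides scanned on different days, so the day too cannot be told apart from the injury here. With 2 sham arrays these calls rested on few animals. Without sham replicate 1 none of the 4 was called (limma adjusted p 0.0625 for C3 to 0.177 for C2, with 2.93% of all probes called), and without sham replicate 2 C2 was not called at 0.099 while C1r, C1s and C3 were (4.04%).

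**Figure D1:**
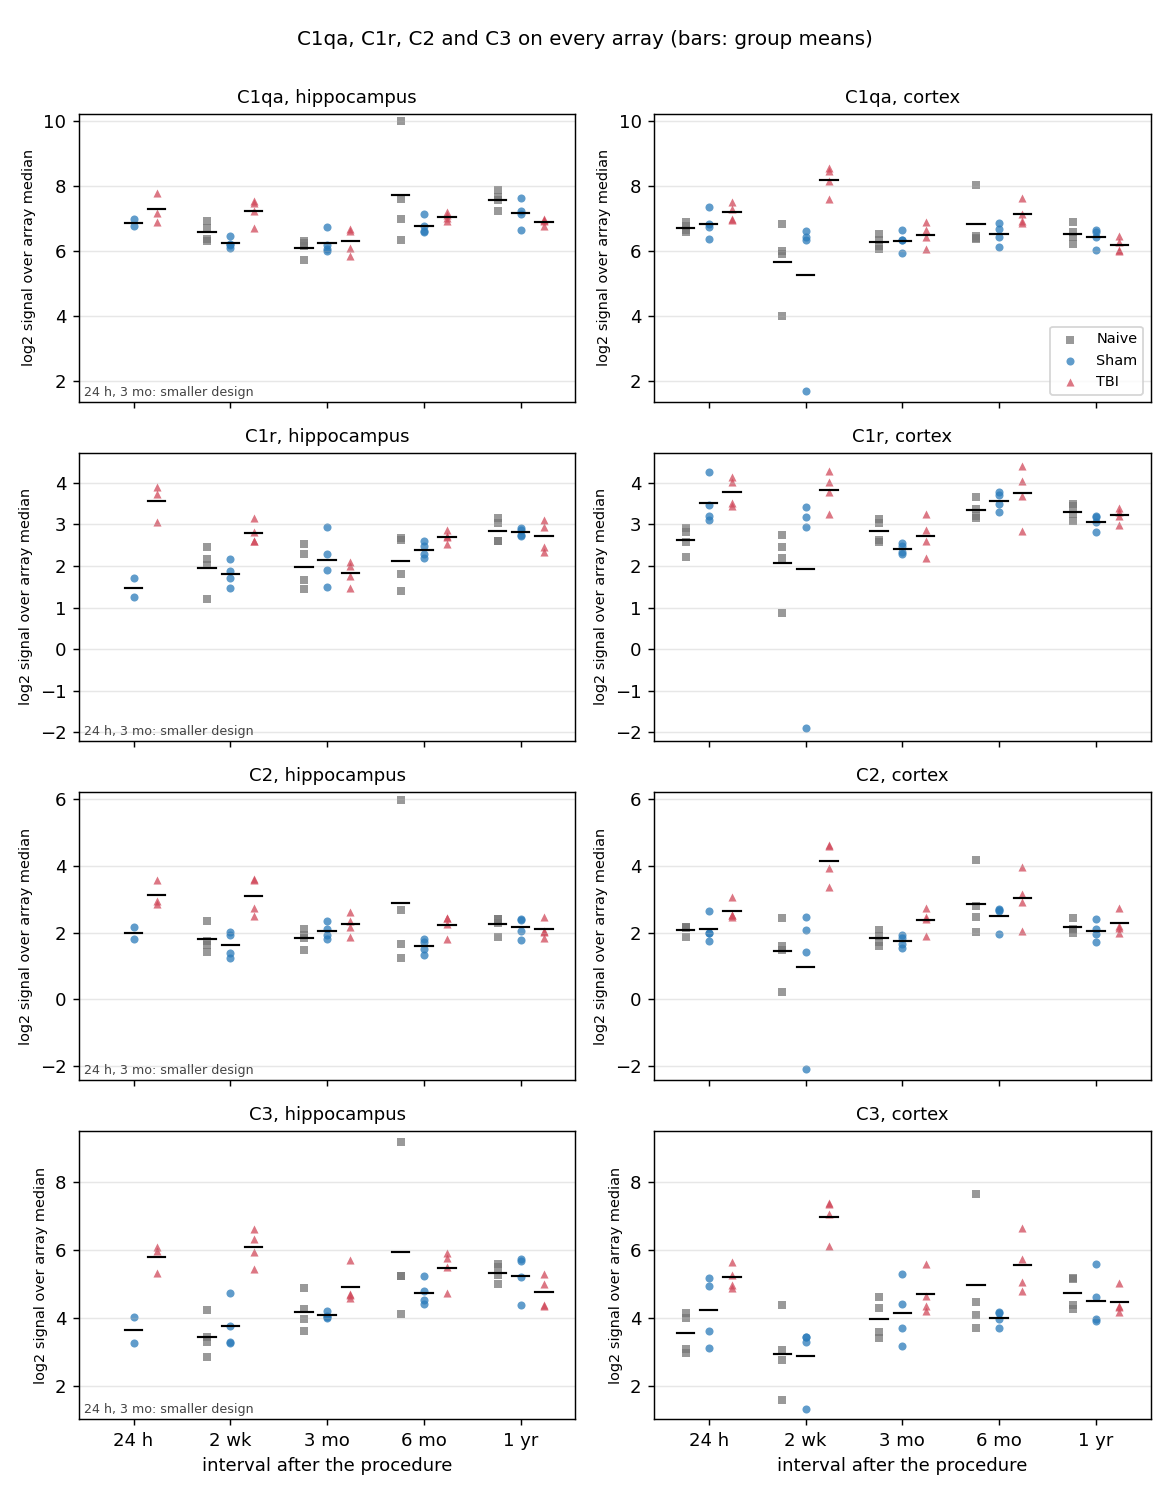
Levels of C1qa, C1r, C2 and C3 on every array (log2 over the median of the array, vertical axis) by interval and condition, for hippocampus and cortex. Points are arrays and bars are group means; hippocampus at 24 hr and 3 months was on another array design. TBI arrays at 2 weeks sat above the sham arrays of both tissues for C3 (5.45 to 6.62 against 3.25 to 4.74 in hippocampus), and cortex sham replicate 3 at 2 weeks lay far below its group for C1qa and C1r.

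At 2 weeks after injury all 7 genes were higher in TBI than in sham hippocampus, and C1q chains were among those called. C1qa, C1qc, C1s, C2 and C3 were called by limma, against 2.41% of 25065 probes called in either direction and 1.06% called higher, while C1qb and C1r were not called. TBI and sham arrays shared a slide here. The median difference of all probes was -0.11, and that of the 7 genes was 0.99.

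C3 was at 3.25, 3.30, 4.74 and 3.77 in sham and 5.94, 5.45, 6.32 and 6.62 in TBI hippocampus at 2 weeks. The lowest TBI array was above the highest sham array, and the difference was 2.32 ± 0.37 (4.99-fold, 95% interval 1.5 to 3.14, limma adjusted p 0.0251). C2 was at 1.39, 1.23, 1.91 and 2.01 in sham and 2.75, 2.49, 3.58 and 3.61 in TBI, a difference of 1.47 ± 0.29 (2.78-fold, limma adjusted p 0.0351). C2 too had no overlap between its groups. C1s was at 1.74, 1.86, 1.97 and 2.16 in sham and 3.13, 2.72, 3.14 and 3.58 in TBI, a difference of 1.21 ± 0.25 (2.32-fold, limma adjusted p 0.0371). Its second probe differed by 1.13 ± 0.26, at a limma adjusted p of 0.05 that did not pass. C1r was at 1.87, 1.46, 1.72 and 2.18 in sham and 2.60, 2.60, 2.81 and 3.16 in TBI, differing by 0.99 ± 0.25 (limma adjusted p 0.0562). All 4 TBI arrays were above all 4 sham arrays for both proteases.

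Among the C1q chains at 2 weeks, C1qa was at 6.11, 6.23, 6.19 and 6.48 in sham and 7.24, 6.72, 7.54 and 7.48 in TBI hippocampus. The difference was 0.99 ± 0.19 (1.99-fold, limma adjusted p 0.0328). C1qc was at 5.23, 5.27, 5.17 and 5.67 in sham and 6.10, 5.69, 6.53 and 6.40 in TBI, a difference of 0.85 ± 0.19 (1.80-fold, limma adjusted p 0.0455). C1qa and C1qc had no overlap, though TBI replicate 2 was only just above the highest sham array for C1qc. C1qb was at 6.65, 6.80, 6.86 and 7.16 in sham and 7.57, 7.10, 8.14 and 8.02 in TBI, and TBI replicate 2 lay below the highest sham array. Its difference was 0.84 ± 0.22 (1.79-fold, limma adjusted p 0.0633).

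All 7 genes passed at an unadjusted p under 0.05 in the hippocampus at 2 weeks, beside 25.1% of probes. All but C1qb had TBI arrays entirely above the sham arrays, as had 2.56% of probes. All 7 were called against naive rats, where 12.8% of probes were called, with TBI and naive arrays on different slides. Leaving out 1 array of the interval left 2 to 6 called. With all arrays 3 were called when only the 2 groups were fitted, 4 with the replicate number as a block and 1 without the filter on dim probes. C3 was 6.20-fold higher than in naive rats (2.63 log2 units, limma adjusted p 0.00218). The calls against sham lay close to the threshold. None of the 5 remained when only the 2 groups were fitted, with the replicate number as a block, or without the filter on dim probes. None remained either without sham replicate 2, 3 or 4 or without TBI replicate 3 or 4, and 6 of the 7 genes were called without TBI replicate 2. The microglia and macrophage markers moved with the members, since 10 of the 13 tested were called higher with a median of 0.95, and their summed level was 932 to 1740 in TBI against at most 815 in sham. Their part in the result was not tested.

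From 3 months on, no member was called between TBI and sham hippocampus. At 3 months, where 0.0134% of probes were called, C3 was at 4.20, 4.03, 4.01 and 4.06 in sham and 5.69, 4.71, 4.67 and 4.59 in TBI. The groups did not overlap and the difference was 0.84 ± 0.27 (1.79-fold), with an unadjusted p of 0.00811 and a limma adjusted p of 0.767. C3 was the 1 gene of 7 below an unadjusted p of 0.05 there, beside 6.12% of probes, and C2 on its second probe differed by 0.51 ± 0.20 (p 0.0243). At 6 months, where again 0.0134% of probes were called, the 1 such gene was C1s (2.87% of probes), at 2.52, 1.93, 2.13 and 2.42 in sham and 2.91, 2.89, 2.90 and 3.13 in TBI. Every TBI array lay above every sham array, the difference was 0.71 ± 0.22 (1.63-fold, unadjusted p 0.00438), and the second C1s probe gave 0.82 ± 0.22 (unadjusted p 0.00112, limma adjusted p 0.64). At 1 year none of the 7 was below an unadjusted p of 0.05, where 14.5% of probes were, 0% of probes were called, and all 7 differences were below 0, from -0.03 for C1s to -0.49 ± 0.30 for C3. Against naive rats no member was called at 3 months (0.0062% of probes called). The same held at 6 months (3.82%) and at 1 year (2.12%). At an unadjusted p under 0.05 there were 2 members beside 3.06% of probes at the first of these intervals and 2 beside 15.3% at the next. Naive replicate 3 enters the comparison at 6 months, in which 5 of 7 differences were below 0. Leaving out any 1 array of that interval left 0 called. At 1 year C1qa, C1qb and C1qc read -0.67, -0.44 and -0.41 against naive rats, all at an unadjusted p under 0.05 as were 22.1% of probes, with a limma adjusted p of 0.0656 for C1qa.

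In the cortex at 24 hr no member was called between TBI and sham (0.217% of probes were called), although 5 of 7 passed at an unadjusted p under 0.05, beside 20.8% of probes. C1qb was at 6.84, 7.88, 7.27 and 7.63 in sham and 8.27, 8, 8.14 and 8.18 in TBI, so the TBI arrays were all higher, with a difference of 0.74 ± 0.19 (1.67-fold, limma adjusted p 0.0787). C3 was at 3.63, 4.94, 3.12 and 5.18 in sham and 5.64, 4.89, 5.27 and 4.97 in TBI, a difference of 0.98 ± 0.44 (limma adjusted p 0.228). The sham rats spread widely and overlapped the TBI rats. C1r was at 3.20, 4.25, 3.11 and 3.47 in sham and 4.14, 4.03, 3.45 and 3.51 in TBI, a difference of 0.28 ± 0.26 (limma adjusted p 0.595).

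Sham rats already differed from naive rats in the proteases of the cortex at 24 hr. C1r was at 2.57, 2.21, 2.91 and 2.83 in naive rats, below all 4 sham arrays, and the difference of sham from naive was 0.88 ± 0.26 (1.84-fold, limma adjusted p 0.0343). C1s was at 2.19, 1.93, 2.28 and 2.32 in naive and 2.79, 3.82, 2.59 and 3.4 in sham, with no overlap. It differed by 0.97 ± 0.26 (1.96-fold, limma adjusted p 0.025), and its second probe by 1.13 ± 0.28 (limma adjusted p 0.0182). In this comparison 19.2% of probes were called and 0.953% of probes were called higher in sham, and the median of all probes was -0.20. Neither protease was called when arrays were scaled to their 75th percentile, by quantiles or with the authors' values, nor without naive replicate 2 or 3 or sham replicate 2 or 4. Against naive rats, which were on another slide, TBI rats were higher in all 7 genes with no overlap, as in 7.35% of probes. Of the genes 5 were called, beside 17.5% of probes. They were C1qb (1.07 log2 units, limma adjusted p 0.00814), C1qc (1.29, 0.00789), C1r (1.15, 0.0149), C1s (1.75, 0.00743) and C3 (1.65, 0.0259). The summed neutrophil and monocyte markers were 12.8 to 169 in TBI, 5.07 to 43.4 in sham and 3.75 to 6.62 in naive cortex. Microglia and macrophage markers summed to 962 to 1340 in TBI, 611 to 871 in sham and 808 to 1070 in naive cortex, so TBI and sham did not overlap. The part of either list in these differences was not tested.

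In the cortex at 2 weeks C3 read higher in TBI rats than in sham rats by 4.09 log2 units, the widest margin of any member at any interval in either tissue, in a comparison that 1 sham array changed throughout. With all arrays no member was called against sham (0.00848% of probes called), 6 of 7 passed at an unadjusted p under 0.05 beside 4.05% of probes, and the median of all probes was 0.95. TBI arrays lay entirely above the sham arrays for 6 of the 7 genes and for 14.4% of probes. Without sham replicate 3, C1qa, C1qb, C1qc, C2 and C3 were called, beside 2.16% of 23578 probes, and the median of all probes was 0.01.

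C3 was at 3.28, 3.45, 1.34 and 3.45 in sham and 7.35, 7.37, 6.10 and 7.05 in TBI cortex at 2 weeks. The difference was 4.09 ± 0.67 (17-fold, limma adjusted p 0.0896) with all arrays and 3.58 ± 0.41 (11.9-fold, limma adjusted p 2.57e-10) without sham replicate 3. The test draws the spread of each probe toward one shared by all probes. Without that array the SE was nearly the same for unlike genes, at 0.39 for Cd68 and 0.38 for Snap25. The SEs and p-values without it thus lean on the shared spread and are not each gene's own precision. On median scaling even the lowest TBI array was far above every sham array, where the place of sham replicate 3 depends on the scaling. C2 was at 2.09, 1.4, -2.10 and 2.47 in sham and 3.94, 4.64, 3.37 and 4.60 in TBI, and without that array it differed by 2.15 ± 0.40 (4.44-fold, limma adjusted p 0.000106). C1qa was at 6.61, 6.33, 1.72 and 6.44 in sham and 8.55, 8.47, 7.59 and 8.14 in TBI, and without that array differed by 1.73 ± 0.41 (3.31-fold, limma adjusted p 0.00407). For C2 and C1qa, as for C3, no TBI array reached down to the sham arrays. C1qb and C1qc differed by 1.48 ± 0.39 (2.78-fold, limma adjusted p 0.0192) and 1.35 ± 0.40 (2.55-fold, limma adjusted p 0.0463) without it.

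The proteases had smaller differences here than C3, which was not tested as a difference between genes. C1r was at 3.19, 2.95, -1.89 and 3.42 in sham and 3.77, 4.28, 3.25 and 4.01 in TBI cortex. TBI replicate 3 lay within the range of the sham arrays, and without sham replicate 3 the difference was 0.64 ± 0.39 (1.56-fold, limma adjusted p 1). C1s was at 2.45, 2.33, 0.79 and 2.70 in sham and 3.67, 4.34, 3.22 and 3.83 in TBI, with no overlap on median scaling. On the authors' scaling sham replicate 3 read 2.31, against -1.29 to -0.92 in the other sham arrays. Without that array C1s differed by 1.27 ± 0.38 (2.41-fold, limma adjusted p 0.0523). Against naive rats, which were on another slide, C3 alone was called with all arrays (4.02 log2 units, limma adjusted p 0.0439, beside 0.12% of probes). All 7 were called when sham replicate 3 was left out of the shared estimate of spread (4.95% of probes), and without naive replicate 4 C3 differed by 3.57 and was not called (limma adjusted p 0.145, 0.0164% of probes). Microglia and macrophage markers were at a sum of 1720 to 2730 in TBI, against 717 to 838 in the 3 other sham arrays. Without sham replicate 3, 9 of 14 were called higher with a median of 1.49, and their part in the result was not tested.

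No member was called in the cortex at the later intervals. At 3 months no member and 0% of probes were called, and C1qc, C1s and C2 were below an unadjusted p of 0.05, as were 4.35% of probes. C2 was at 1.54, 1.93, 1.66 and 1.82 in sham and 2.48, 2.75, 2.42 and 1.89 in TBI, with TBI replicate 4 inside the sham range, a difference of 0.65 ± 0.19 (1.57-fold, limma adjusted p 1). At 6 months no member was called (0.0805% of probes), and C3 was the 1 gene below an unadjusted p of 0.05, beside 9.87% of probes. It was at 4.17, 3.98, 3.69 and 4.14 in sham and 4.79, 5.04, 5.72 and 6.65 in TBI, with no overlap, a difference of 1.56 ± 0.71 (2.94-fold, unadjusted p 0.0495, limma adjusted p 0.504). Naive replicate 4 shares the estimate of spread, and without that array the difference was 1.56 ± 0.35 (unadjusted p 0.000936, limma adjusted p 0.164, 0.0644% of probes called). Choroid plexus markers in the same arrays summed to 136 to 1300 in TBI and 15.4 to 75.8 in sham cortex, and their part was not tested. At 1 year no member and 0% of probes were called, none was below an unadjusted p of 0.05 (5.77% of probes were), and differences ran from -0.26 for C1s to 0.23 for C2. Against naive rats no member was called at 3 months (0.561% of probes), 6 months (0.253%) or 1 year (5.3%). At an unadjusted p under 0.05 there were 1, 0 and 2 members, the latter both lower, beside 10.8%, 11.8% and 23.1% of probes. At 6 months naive replicate 4 bears on this. C3 was at 7.63 there, at 3.71 to 4.47 in the other naive arrays and at 4.79 to 6.65 in TBI. Leaving out any 1 array of that interval left 0 called.

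No member was called by limma between sham and naive rats outside the cortex at 24 hr. In the hippocampus the share of probes called went from 8.97% at 2 weeks and 0% at 3 months to 3.54% at 6 months and 3.11% for the 1 year rats. Members at an unadjusted p under 0.05 numbered 0, 0, 4 and 1 in that order, all of them lower in sham, beside 25.7%, 5.7%, 15.8% and 21.6% of probes. The 4 at 6 months rested on naive replicate 3, without which the differences of C1qa and C3 were -0.19 ± 0.25 and -0.12 ± 0.28 (3.13% of probes called). In the cortex, from 2 weeks to the 1 year rats, the share of probes called was 0%, 0.409%, 0% and 4.35%. No member there was below an unadjusted p of 0.05, against 0.0487%, 9.07%, 6.76% and 18.1% of probes. The cortex groups at 2 weeks and 6 months hold arrays that stood apart, and leaving out any 1 array left 0 called.

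Whether the effect of injury differed between the tissues was tested for each interval, and no member was called at any. The labels do not say which arrays of the 2 tissues share an animal, so arrays were taken as independent. At 24 hr, where 2.42% of probes were called, C1r, C1s and C2 were below an unadjusted p of 0.05 as were 15.7% of probes, and the effect on C1r was larger in the hippocampus than in the cortex by 1.81 ± 0.45 (limma adjusted p 0.0658). C1r was called there with the replicate number as a block (1.82 ± 0.42, limma adjusted p 0.0412) and with array weights (1.77 ± 0.4, limma adjusted p 0.0352). That comparison crosses the 2 array designs. At 2 weeks 0% of probes were called with all arrays and 1 member was below an unadjusted p of 0.05 (1.73% of probes). Without cortex sham replicate 3 the effect on C3 read -1.26 ± 0.52 in hippocampus relative to cortex and that on C1qa -0.74 ± 0.31, both at an unadjusted p under 0.05 and at limma adjusted p 0.249 and 0.252, beside 0.0746% of probes. At the 3 later intervals 0%, 0.004% and 0% of probes were called, and no member was below an unadjusted p of 0.05, against 3.05%, 3.36% and 10.8% of probes.

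Between intervals, the injury effect in the hippocampus was smaller at 1 year than at 2 weeks for C1qa with a difference of -1.24 (limma adjusted p 0.0483) and for C3 with -2.81 (limma adjusted p 0.0369), the 2 members called beside 0.75% of probes, and all 7 were below an unadjusted p of 0.05 in that direction, beside 17.5% of probes in either direction. These contrasts were added after values were seen, and the calls rested on single arrays. Neither gene was called without any 1 of sham replicates 1 to 4 or TBI replicates 1, 3 or 4 of the 2 week interval, or of sham replicates 2 to 4 or TBI replicates 1, 2 or 4 of the 1 year interval, and all 7 were called without TBI replicate 2 at 2 weeks. In the cortex none was called with all arrays (0.0745% of probes), while 6 members and 4.33% of probes were below an unadjusted p of 0.05, where C3 differed by -4.13 (limma adjusted p 0.0526). Without sham replicate 3 of the 2 week interval, all members but C1r were called (5.74% of probes), C3 by -3.62 ± 0.52 (limma adjusted p 0.00152) and C1r at -0.49 ± 0.28 (limma adjusted p 0.351). From 24 hr to 2 weeks in the cortex no member was called (0% of probes), while 3 members and 2.14% of probes were below an unadjusted p of 0.05.

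**Figure D2:**
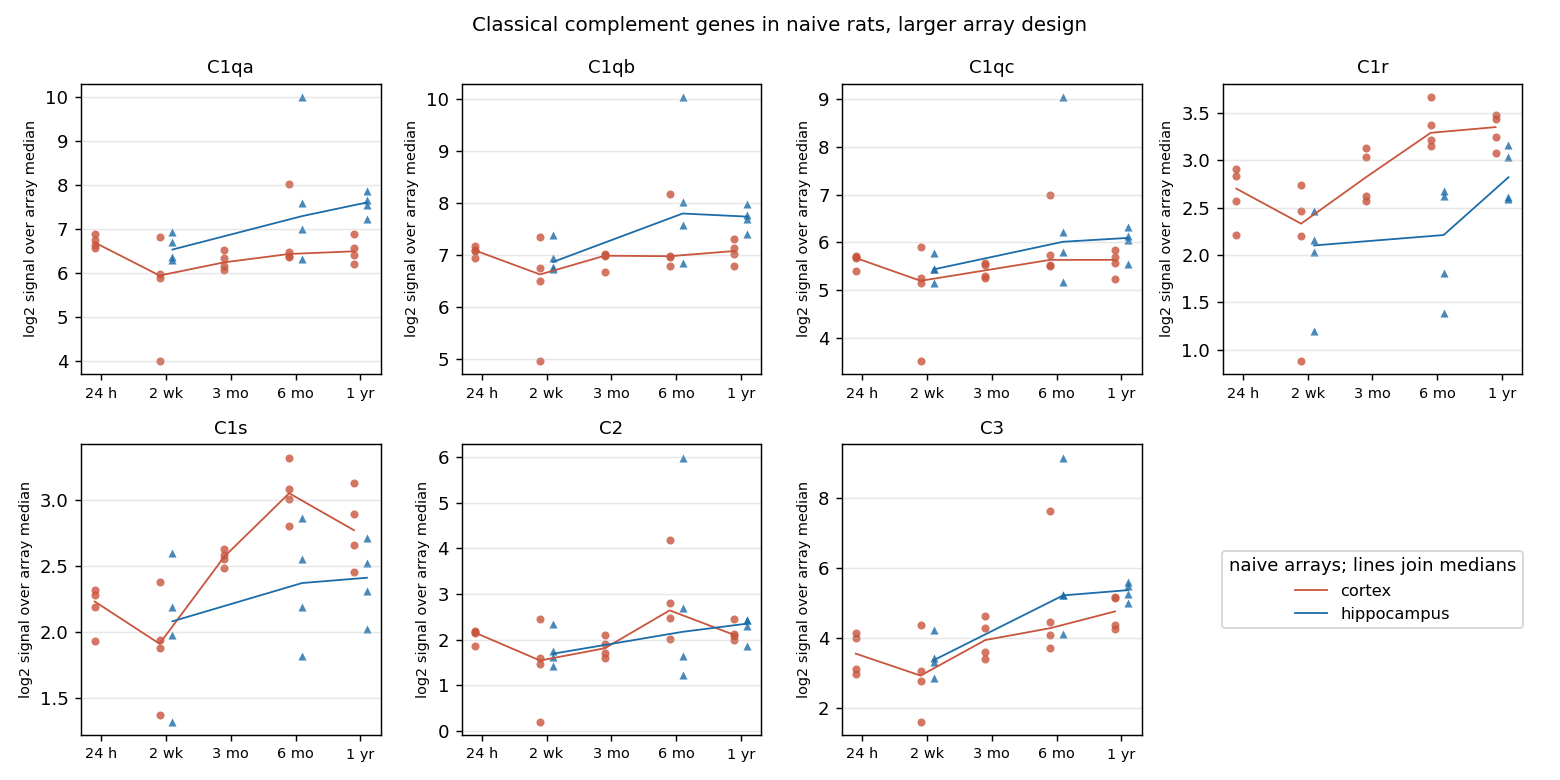
Levels of the 7 genes in naive rats (log2 over the median of the array, vertical axis) by interval, on the larger array design, for cortex and hippocampus. Points are arrays and lines join group medians; hippocampus has no naive array at 24 hr and its 3 month arrays were on the other design. The median of C3 was 2.92 at 2 weeks and 4.76 at 1 year in cortex, and 3.36 and 5.37 in hippocampus.

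In naive rats, which had neither surgery nor injury, the proteases of the cortex read highest at 6 months and 1 year. The arrays of those intervals were scanned on 1 day and the earlier ones on other days. In the cortex C1r and C1s were higher at 1 year than at 2 weeks and were called by limma, beside 2.36% of probes. The median of all probes was 0.43 in that comparison. C1r was at 2.46, 2.74, 2.20 and 0.88 at 2 weeks and 3.48, 3.44, 3.08 and 3.25 at 1 year, so all rats of the later group were higher. The difference was 1.24 ± 0.29 (2.37-fold, limma adjusted p 0.0222). C1s was at 1.94, 2.38, 1.88 and 1.37 and then 2.89, 3.13, 2.45 and 2.66, again without overlap, a difference of 0.89 ± 0.24 (1.86-fold, limma adjusted p 0.0407). Without naive replicate 4 of the 2 week group the median of all probes was 0.08 and both were called (2.31% of probes), C1r at 0.85 ± 0.19 (limma adjusted p 0.0309) and C1s at 0.72 ± 0.17 (limma adjusted p 0.0324). Neither was called without naive replicate 1, 2 or 4 of the 1 year group, and all 7 members were called without naive replicate 2 of the 2 week group. Over all 5 intervals the group means of C1r in naive cortex were 2.63, 2.07, 2.84, 3.35 and 3.31, and those of C1s were 2.18, 1.89, 2.56, 3.05 and 2.78, with the 2 highest at 6 months and 1 year. In an F test over the 5 intervals these were the 2 members called (limma adjusted p 0.0386 and 0.022), beside 2.69% of probes. Without naive replicate 4 of the 6 month group C1s was called (0.0353) and C1r was not (0.0675), beside 1.33% of probes, and neither was called without naive replicate 1 of the 2 week or of the 6 month group.

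C3 was at 2.77, 4.38, 3.06 and 1.60 in naive cortex at 2 weeks and 5.17, 4.37, 5.15 and 4.25 at 1 year. The groups overlapped slightly, and the difference of 1.78 ± 0.54 (3.44-fold) had a limma adjusted p of 0.0651. It was called without naive replicate 4 of the 6 month group (0.0167, 1.91% of probes), and read 1.33 ± 0.67 (limma adjusted p 0.278) without naive replicate 4 of the 2 week group. In naive hippocampus C3 was at 3.43, 4.22, 3.30 and 2.86 at 2 weeks and 5.59, 5, 5.25 and 5.49 at 1 year, with no overlap. The difference was 1.88 ± 0.65 (3.68-fold, limma adjusted p 0.265), and no member was called there (0.566% of probes), while 2 members and 9.62% of probes were below an unadjusted p of 0.05. Without naive replicate 3 of the 6 month group, which shares the estimate of spread, C3 was called at 1.88 ± 0.28 (limma adjusted p 0.000432, 0.87% of probes). The difference itself did not change and only its SE did. As C3 was among the values by which that array stood apart, the call is no independent support. C1qa in naive hippocampus was at 6.71, 6.93, 6.37 and 6.31 at 2 weeks and 7.56, 7.23, 7.87 and 7.66 at 1 year, also without overlap, a difference of 1.00 ± 0.48 (limma adjusted p 0.52), or 1.00 ± 0.25 (limma adjusted p 0.058) without that array. C1r there was at 2.16, 2.03, 1.2 and 2.46 and then 2.59, 2.61, 3.03 and 3.16, a difference of 0.88 ± 0.30 (limma adjusted p 0.249). Summed microglia and macrophage markers were 696 to 901 at 2 weeks and 978 to 1250 at 1 year in naive hippocampus, and 203 to 898 and 646 to 844 in cortex, and their part was not tested. Each interval of naive rats was on its own slide, and in both tissues the 2 week and 1 year arrays were scanned on different days. Age, slide and day thus cannot be told apart.

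Between the tissues of naive rats 3 of 7 members were called at 1 year, a share near that of all probes (37.4%). Hippocampus and cortex were on different slides scanned on different days at each interval compared, so tissue, slide and day cannot be told apart. At 1 year C1qa was higher in hippocampus than in cortex by 1.05 ± 0.18 (2.07-fold, limma adjusted p 0.00174) and C1qb by 0.65 ± 0.15 (1.57-fold, limma adjusted p 0.00932), while C1r was lower (-0.47 ± 0.16, limma adjusted p 0.0422). At 6 months C1qa, C1qb and C3 were called higher and C1r lower in hippocampus (16.6% of probes). Without hippocampus naive replicate 3 the C1q chains and C3 were not called and C1r (-1.39 ± 0.31), C1s (-0.87 ± 0.31) and C2 (-1.02 ± 0.31) were called lower (15.6% of probes). Hippocampus naive replicate 2 of that interval had 72.5% of probes well above background. Its C1r, C1s and C2 were the lowest of the group at 1.39, 1.82 and 1.22. With replicate 3 kept, 1 member was called without replicate 2, and the same held without any 1 of cortex naive replicates 1 to 3. Without cortex naive replicate 4, 5 members were called. At 2 weeks no member was called (5.01% of probes), and 1 member and 16.2% of probes were below an unadjusted p of 0.05.

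**Figure D3:**
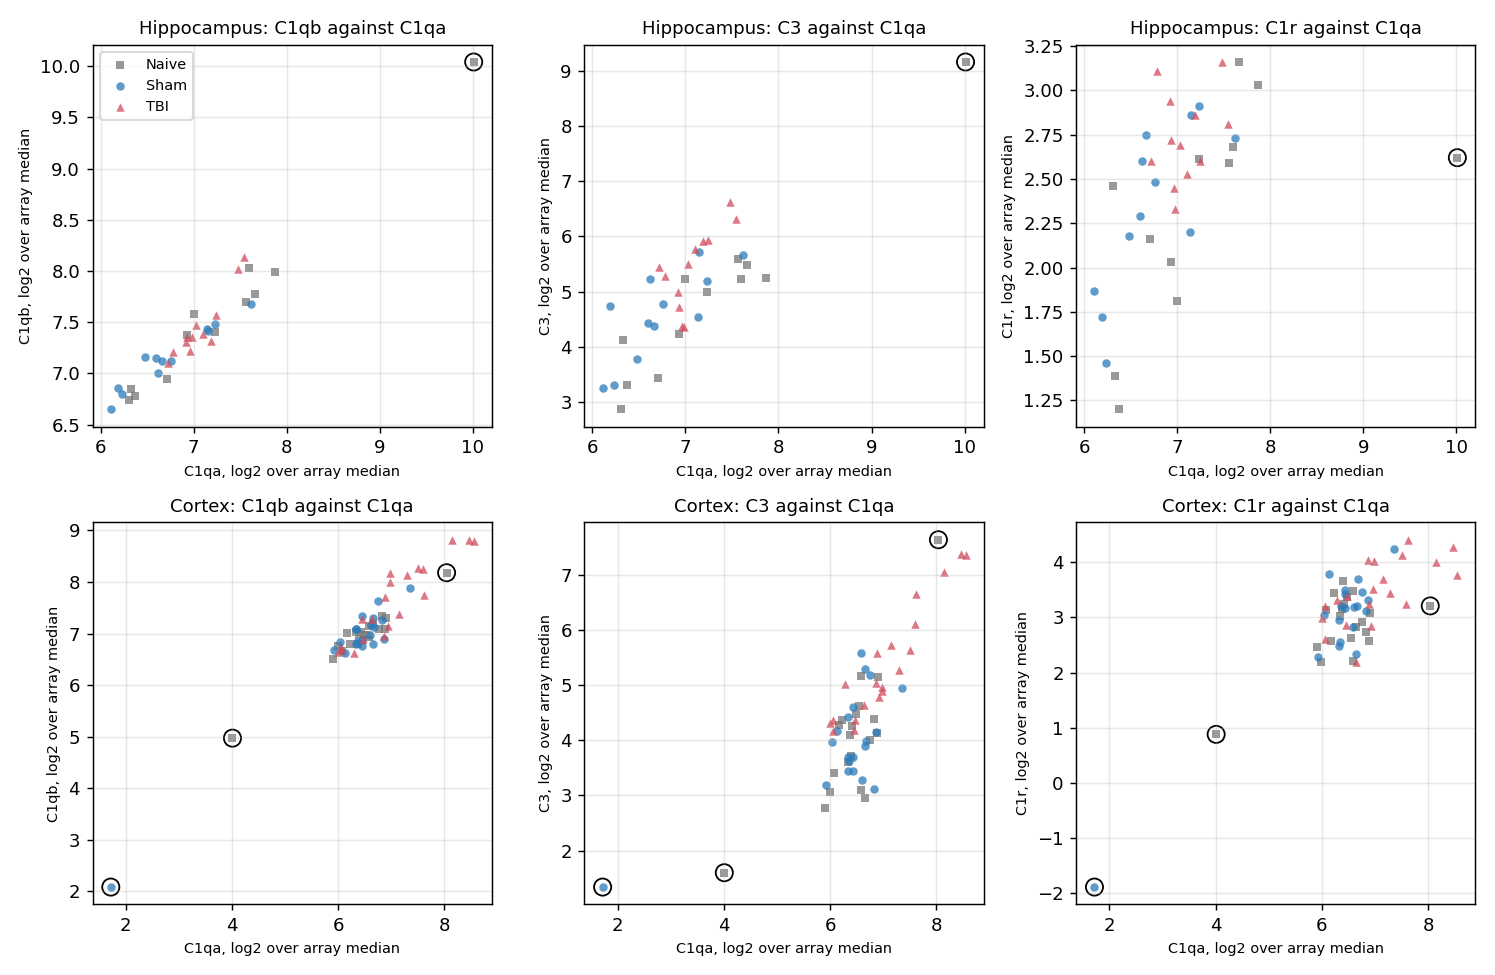
Levels of C1qb, C3 and C1r (vertical axis) against that of C1qa (horizontal axis), both as log2 over the median of the array, 1 point per array on the larger design, by tissue. Circled points are the 4 arrays that stood apart. C1qb followed C1qa closely in both tissues, with Pearson correlations of 0.964 in cortex and 0.974 in hippocampus, and C1r less closely, with 0.832 and 0.503. Without the circled arrays these were 0.911 and 0.941 for C1qb and 0.588 and 0.694 for C1r.

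Across the 60 cortex and 36 hippocampus arrays of the larger design, the 3 recognition chains of C1 were the members most alike. The 3 C1q chains were correlated at 0.949 to 0.980 (Pearson, 0.881 to 0.949 without the 4 arrays that stood apart). C1r and C1s were correlated at 0.834 in cortex and 0.794 in hippocampus (0.874 and 0.796 without those arrays). Between chains and proteases C1qa and C1r were at 0.832 and 0.503 (0.588 and 0.694 without those arrays). In cortex C1r was closer to C1qc than to C1s with all arrays, at 0.859, but not without those arrays, at 0.661. C3 was correlated with C2 at 0.817 and 0.866 (0.768 and 0.774 without those arrays) and with C1qa at 0.804 and 0.853 (0.809 and 0.748). The points share group, slide and array scaling, so these values describe the arrays and carry no test.

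For each member the 3 most like genes outside the members were picked by their correlation in cortex. They were drawn from 10764 named genes, a number that includes the members. These had passed a filter on signal above background in cortex. C1qa was closest to Aif1 (0.959 in cortex, 0.933 in hippocampus), the microglial protein Iba1, and then to Rnaset2 (0.953, 0.881) and Adgre1 (0.951, 0.92), the macrophage antigen F4/80. C1qb was closest to Fcer1g (0.983, 0.957), Tyrobp (0.977, 0.95) and Aif1 (0.977, 0.95), where Fcer1g and Tyrobp are signaling adaptors of myeloid receptors. C1qc was closest to Fcer1g (0.964, 0.907), Lyl1 (0.964, 0.877) and Tyrobp (0.962, 0.895). None of these genes was among the 3 nearest either protease. C1r was closest in cortex to Ier3 (0.939), Dap (0.937) and Aebp1 (0.934), with 0.36, 0.605 and 0.746 in hippocampus. C1s was closest to the immunoproteasome subunit Psmb9 (0.902, 0.529), the galectin Lgals3 (0.894, 0.818) and ceruloplasmin, Cp (0.89, 0.837). C2 was closest to the class I histocompatibility gene RT1-A2 (0.924, 0.886), to Parp14 (0.919, 0.835) and to C4b (0.91, 0.906), the other component that C1s cleaves. C3 was closest to Ncf1 (0.898, 0.955), a subunit of the phagocyte oxidase, to Cd68 (0.868, 0.791) and to the Fc receptor Fcgr2b (0.848, 0.888). Without the 4 arrays that stood apart, correlations of these genes ran from 0.821 (C1r and Dap) to 0.969 (C1qb and Tyrobp) in cortex and from 0.366 (C1r and Ier3) to 0.927 (C3 and Ncf1) in hippocampus.

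The rest of the complement system was read from 40 further genes in 4 lists. In the hippocampus at 24 hr, 0 of 1 tested gene of the remaining classical and terminal components was called higher, 2 of 7 of the lectin and alternative pathways, 2 of 5 receptors and 2 of 8 regulators, and none was lower. At 2 weeks the counts were 2 of 3, 1 of 6, 2 of 6 and 1 of 8. Of all probes 13.6% and 2.41% were called at these intervals in order, and 5.57% and 1.06% were called higher. With all arrays no gene of the lists was called between TBI and sham at the other intervals of the hippocampus or at any interval of the cortex. In the cortex at 2 weeks without sham replicate 3 the counts were 2 of 3, 1 of 7, 4 of 6 and 1 of 7, all higher, beside 2.16% of probes.

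Serping1, the C1 inhibitor that blocks C1r and C1s, and C3ar1, the receptor of the fragment C3a, were called in both early hippocampal comparisons. Serping1 rose by 2.68 ± 0.47 (6.42-fold, limma adjusted p 0.019) at 24 hr and 1.81 ± 0.32 (3.52-fold, limma adjusted p 0.0291) at 2 weeks. C3ar1 rose by 1.27 ± 0.31 (limma adjusted p 0.0466) and 1.23 ± 0.27 (limma adjusted p 0.0429). Serping1 read 1.19 ± 0.34 and 1.2 ± 0.29 above sham in the hippocampus at 3 and 6 months and 1.4 ± 0.43, 1.63 ± 0.41 and 1.12 ± 0.43 in the cortex at 24 hr, 3 months and 6 months, none called. In the cortex at 2 weeks Serping1 was 2.02 above sham without sham replicate 3 (limma adjusted p 0.000174) and 3.20 ± 0.94 with it, the highest difference among the regulators, of which the lowest was Cd46 in the cortex at 1 year (-0.92 ± 0.34, not called).

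The highest and lowest differences of TBI from sham in the other 3 lists were Fcnb, a ficolin of the lectin pathway (2.49 ± 0.44 in the hippocampus at 24 hr, limma adjusted p 0.0192), and Colec12 (-0.69 ± 0.55, cortex at 24 hr), C4b (2.47 ± 0.86, cortex at 2 weeks) and C6 (-0.31 ± 0.23, cortex at 1 year), and the integrin chains Itgb2 (3.55 ± 0.87, cortex at 2 weeks) and Itgam (-0.78 ± 0.32, hippocampus at 1 year), of which Fcnb was called with all arrays. Without cortex sham replicate 3, C4b at 1.5 ± 0.4 (limma adjusted p 0.019) and Itgb2 at 2.61 ± 0.41 (limma adjusted p 3.1e-06) were called in the cortex at 2 weeks, where C4a was at 1.55 ± 0.4 (limma adjusted p 0.0125). The 2 C4 genes, substrates of C1s, were called in the hippocampus at 2 weeks, C4a by 1.28 ± 0.24 (limma adjusted p 0.0328) and C4b by 1.26 ± 0.24 (limma adjusted p 0.0328). Cfb, the neighbor of C2, was called at 24 hr in the hippocampus with 1.75 ± 0.26 (limma adjusted p 0.013). C4a, C4b and Cfb were singled out after their values were seen.

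Markers of other cells were read in the same comparisons. In the hippocampus at 24 hr, 3 of 13 microglia and macrophage markers were called higher (sum 745 to 1070 in TBI, 632 to 636 in sham), as were 3 of 7 astrocyte markers, 1 of 3 T cell markers and 1 of 2 neutrophil and monocyte markers. Neutrophil and monocyte markers summed to 14.3 to 102 in TBI and 3.32 to 3.38 in sham, where Elane, Ccr2 and Mmp8 were not above background on any array of either group. Of 7 neuron markers 1 was called lower, and no oligodendrocyte, red cell, meningeal or choroid plexus marker was called. Of all probes 13.6% were called in that comparison and 5.57% were called higher. At 2 weeks in the hippocampus, where 2.41% of probes were called, 1 of 6 astrocyte markers was called beside the 10 microglial ones and no marker of the other lists. In the cortex with all arrays 1 of 5 choroid plexus markers was called at 6 months, beside 0.0805% of probes, and no other marker at any interval. At 2 weeks without sham replicate 3 the 9 microglial markers and 1 of 4 choroid plexus markers were called, beside 2.16% of probes. No marker of the astrocyte, neuron, oligodendrocyte, T cell, neutrophil, red cell or meningeal lists was called there.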

How the data were processed

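RNA of rat hippocampus and cortex was measured on 113 Agilent 1-colour rat arrays, 96 of a larger and 17 of a smaller design with 19277 probes in common. The authors deposited scanner files from Agilent Feature Extraction 11.5.1.1, whose processed signal is a background-corrected linear intensity, and processed intensities that, per the methods, were scaled to the median of each array in GeneSpring. For 99.9% of the probes of the median array (84.1% in the lowest array) these deposited intensities lay within 0.05 log2 units of the scanner value over a number fixed for that array. That number lay at percentile 15.9 to 75.4 of the array, median 74.9, and values are floored at 0.01.

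Processed signals were averaged over spots of a probe without outlier spots (0.736% left out), converted to log2, and centered on the array median. A probe was tested where each array of 1 or more of the groups compared read it as well above background. Tests used limma 3.58.1 (lmFit, contrasts.fit, eBayes) in R 4.3.3, with naive, sham and TBI of 1 tissue and interval in 1 fit. Adjustment of p-values followed Benjamini-Hochberg across the probes tested, and a gene is called at an adjusted p under 0.05. Interval fits over naive rats and fits across tissues held all groups concerned. Probes were named through RefSeq (46.3% of the larger and 61.4% of the smaller design) and the annotated positions are those of GRCr8.

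The members, the other complement lists and the marker lists (microglia and macrophage, astrocyte, neuron, oligodendrocyte, T cell, neutrophil and monocyte, red cell, meninges and fibroblast, choroid plexus) were chosen with earlier results of these data known. All members are named, other complement genes where called in at least 2 comparisons of TBI with sham or at the extremes of a list, and for each member the 3 genes most correlated with it in cortex. Samples were grouped by their labels. Of 28 pairs of groups that share replicate numbers, 2 had every same-numbered correlation above 0.1 (sham and TBI cortex at 1 year, naive and sham hippocampus at 3 months), and a fit with the number as a block left the calls there at 0. The numbers do not say which animals they stand for, so p-values measure the spread between these samples. In limma the spread of each probe is drawn toward one shared by all probes. The highest correlation between arrays of a group was 0.9925, and no array was treated as a duplicate. The number of arrays limits the precision. Alternatives were scaling to the 75th percentile, quantile normalization, the authors' values, normexp background correction with an offset of 50, no filter or a stricter one, fits of only the groups compared, replicate and slide blocks, array weights, the study's own thresholds (fold of at least 1.4 and unadjusted p under 0.05), and leaving out each array. The test was run on simulated hippocampus arrays with independent noise and large added changes. That run does not cover smaller differences or arrays that stand apart.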

Additional observations from a re-analysis of the deposited data

Results flagged for a closer look

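Of 189 groups of 4 arrays by gene, 16 held 1 array far from the others by Dixon's criterion, which chance alone gives in about 1 of 20. Cortex sham replicate 3 at 2 weeks was such an array for C1qa (1.72), C1qb (2.08, others 7.08 to 7.35), C1qc (0.57, others 5.55 to 5.86), C1r (-1.89) and C3 (1.34, others 3.28 to 3.45). Cortex naive replicate 4 at 6 months was one for C1qa (8.04), C1qb (8.18, others 6.79 to 6.98) and C1qc (7, others 5.50 to 5.73).

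The other 8 each concern 1 gene. C1qb read 6.67 in cortex naive replicate 3 at 3 months (others 6.98 to 7.03) and 8.26 in cortex TBI replicate 3 at 2 weeks (others 8.79 to 8.82). C1qc read 5.39 in cortex naive replicate 3 at 24 hr (others 5.66 to 5.71). C1s read 3.13 in hippocampus TBI replicate 4 at 6 months (others 2.89 to 2.91). C2 read 1.85 in cortex naive replicate 2 at 24 hr (others 2.15 to 2.18), 1.95 in cortex sham replicate 4 at 6 months (others 2.66 to 2.70) and 3.07 in cortex TBI replicate 1 at 24 hr (others 2.46 to 2.54). C3 read 5.69 in hippocampus TBI replicate 1 at 3 months (others 4.59 to 4.71).

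The effect of injury in the hippocampus was called different between 1 year and 2 weeks by limma's test of the difference itself, by -1.24 log2 units for C1qa and -2.81 for C3. This contrast was added after values were seen. No member was called in 13 of the 16 fits that each left out 1 array.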

How the results depend on the processing

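Values are counts of member genes called, or of gene calls summed over intervals, against the count reported. The study's thresholds (fold of at least 1.4, unadjusted p under 0.05) gave 1 each for TBI against sham hippocampus of the 3 month and 6 month rats, and in cortex 5, 6, 2 and 1 for the first 4 intervals in order, each against 0. They gave 4 for sham against naive hippocampus (0), 11 for TBI against naive hippocampus (7), 12 for TBI against naive cortex (6), 2 and 5 for naive rats at 1 year against 2 weeks in hippocampus (0) and cortex (2), 4 for effects between tissues (0) and 16 for effects between intervals (2). Scaling to the 75th percentile gave 2 in the cortex at 2 weeks (0), 0 for sham against naive cortex (2) and 1 for naive cortex over the year (2). Quantile normalization gave 2, 0 and 1 in the same places, 4 for naive tissues (7) and 4 between intervals (2), and the authors' values gave 1, 0 and 1. Normexp gave 5 in the cortex at 24 hr, 1 at 2 weeks, 4 for the naive F test (2) and 4 between intervals. Without a filter on dim probes counts were 0 in the hippocampus at 24 hr (4) and at 2 weeks (5), 1 for TBI against naive hippocampus, then 2 and 3 for the cortex at its first 2 intervals, 0 for sham against naive cortex, 0 for naive cortex over the year and for its F test, 1 for naive tissues and 4 between intervals. The stricter filter gave 1 for naive hippocampus over the year and 4 for the F test. Fits of only the groups compared gave 0 in the hippocampus at 2 weeks, 5 for sham and 3 for TBI against naive hippocampus, 13 for TBI against naive cortex, and 3 and 1 for naive hippocampus and cortex over the year. Array weights gave 1 in the hippocampus at 6 months, 1 for sham against naive and 2 for naive hippocampus over the year, 6 in the cortex at 2 weeks, 15 for TBI against naive cortex, 1 between tissues and 12 between intervals.

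With the replicate number as a block, counts were 0 in the hippocampus at 2 weeks, 3 for sham and 4 for TBI against naive hippocampus, 1 for sham against naive cortex, 1 between tissues and 1 between intervals. A slide block was fitted where groups share a slide. Each group lay on 1 slide, so the block added nothing to the groups and changed no count. It cannot show whether the results depend on the slide. Leaving out 1 array at a time, counts ran from 0 to 4 in the hippocampus at 24 hr (0 without sham replicate 1), from 0 to 6 at 2 weeks, 2 to 7 for TBI and 0 for sham against naive hippocampus, 0 to 1 for naive hippocampus over the year, 0 in the cortex at 24 hr, 0 to 5 at 2 weeks (5 without sham replicate 3), 0 to 4 for sham and 4 to 12 for TBI against naive cortex, 0 to 7 for naive cortex over the year, 0 to 5 for its F test, 0 between tissues, 4 to 8 for naive tissues and 0 to 8 between intervals, and stayed at 0 in both tissues from 3 months on. Of 70 differences of TBI from sham, 3 changed sign under the 75th percentile, quantiles or the authors' values and 2 under array weights, none of them past an unadjusted p of 0.05. Causes were not tested.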
